A study of Mus musculus with 6 samples.

Results

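The genes described here are 10 transcription factors that direct keratinocyte differentiation: Trp63, Zfp750, Klf4, Grhl1, Grhl3, Ovol1, Prdm1, Gata3, Cebpa and Cebpb. They are listed by symbol, with no threshold on measured values, though the list was drawn up with earlier results of these data known, and all 10 were found among the 41214 gene identifiers of the count files. The libraries were made from polyadenylated RNA of trypsin-treated epidermis of C57BL/6 mice at postnatal day 4, with 3 labelled wt and 3 labelled ARPC4 ko. Arpc4 encodes a core subunit of Arp2/3, the protein assembly that starts new branches on actin filaments. The series title concerns the loss of this complex in epidermis, a psoriasis-like disease and the transcription factor Nrf2. Titles of the ko libraries carry the mark "hom". The driver of the deletion and the alleles of the wt animals were not given in the sources used here. The labels do not tell whether libraries of a group stem from separate animals, and a p-value here measures the spread between these samples, which may be technical.

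The epidermis is a stratified epithelium in which cells divide in the basal layer, leave the cell cycle and move outward through the spinous and granular layers to the cornified surface. p63, the product of Trp63, maintains the basal state and starts stratification, and it acts in part through its target Zfp750. Klf4, Grhl1, Grhl3, Ovol1, Prdm1 and Gata3 act in suprabasal cells, where they support barrier proteins, desmosomes and barrier lipids or repress genes of the preceding layer. The bZIP factors C/EBP alpha and C/EBP beta act in suprabasal cells with overlapping roles in cell-cycle exit and early differentiation. The question put to the data was whether the messenger RNA of these factors differed between wt and ARPC4 ko epidermis.

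Reads assigned to genes summed to between 17561294 and 22659511 per library, and the lowest count of any of the 10 factors in any library was 1261, so counting error was small beside the spread between libraries. Titles of replicates 1 and 2 of each group carry a date and the marks I and II, and those of replicate 3 carry no date and the mark "Tryp". The labels do not say what this mark stands for, and the groups of libraries are called dated and undated below. The targeted gene checked the labels only weakly: Arpc4 lay between 72.6 and 82.5 CPM (the count of a gene relative to all counts in genes, scaled by the trimmed mean of M-values, TMM) in wt and between 64.5 and 67.6 CPM in ko. Its ranges did not overlap, but its log2 fold change of -0.21 did not pass (edgeR adjusted p = 0.469). Libraries differed strongly in basal markers. The summed level of 14 basal genes ran from 2090 to 10700 CPM in wt and from 3338 to 12204 CPM in ko, lowest in wt replicate 2 and highest in both undated libraries. Summed markers of several other cells lay apart between the groups, with no single marker past the adjusted threshold. Summed fibroblast markers ran from 178.3 to 452 CPM in wt and from 960.3 to 1942 CPM in ko (8 of 10 higher at an unadjusted p under 0.05), and endothelial markers from 3.99 to 4.76 and from 13.3 to 25.3 CPM (9 of 9). Melanocyte markers ran from 74.1 to 95.2 and from 104 to 148 CPM (4 of 8 higher). Macrophage and Langerhans cell markers overlapped, from 413 to 728 and from 688 to 967 CPM (2 of 12 higher). Of these markers 12 of 12 lay above 0, with a median log2 fold change of 0.67. Sebaceous gland markers ran from 1780.0 to 2175 and from 913 to 1246 CPM (8 of 10 lower). At an unadjusted p under 0.05 by edgeR, 7.98% of all genes tested were higher in ko and 5.25% were lower. Neutrophil markers summed to at most 2.36 CPM, with Ly6g and Mmp8 at 0 in all libraries. The part of any of these cells in the values below was not tested. In bulk tissue, fewer cells of a type and less RNA per cell cannot be told apart.

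None of the 10 factors was called different between ARPC4 ko and wt epidermis. Since few genes were called in all, 0 calls among 10 genes does not set these factors apart. By edgeR's quasi-likelihood test with Benjamini-Hochberg adjustment over 13704 genes, 0 of 10 passed an adjusted p of 0.05, against 0.219% of all genes tested (30 genes, every one of them higher in ko, and 0 genes when any wt library or ko replicate 2 was left out). At an unadjusted p under 0.05 the count was also 0 of 10, against 13.2% of all genes, and it was 0 of 10 by adjusted p in DESeq2 (4.21% of all genes) and in limma-voom (0%). The log2 fold changes (ko over wt) ran from -0.24 for Gata3 to 0.48 for Trp63, with 7 above 0, 3 below 0 and a median of 0.10, beside a median of 0.02 for all genes. Their median size was 0.17, between 0.20 for all genes tested and 0.15 for the 3820 genes with a mean of at least 50 CPM. The spread within groups was wider than that of other genes, with a median standard deviation of 0.34 on the log2 scale against 0.27 for all genes and 0.20 for those 3820 genes. The 95% intervals of the fold (ko over wt) ran from 0.674 to 1.06 for Gata3, the narrowest, and from 0.612 to 3.19 for Trp63, the widest.

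**Figure D1:**
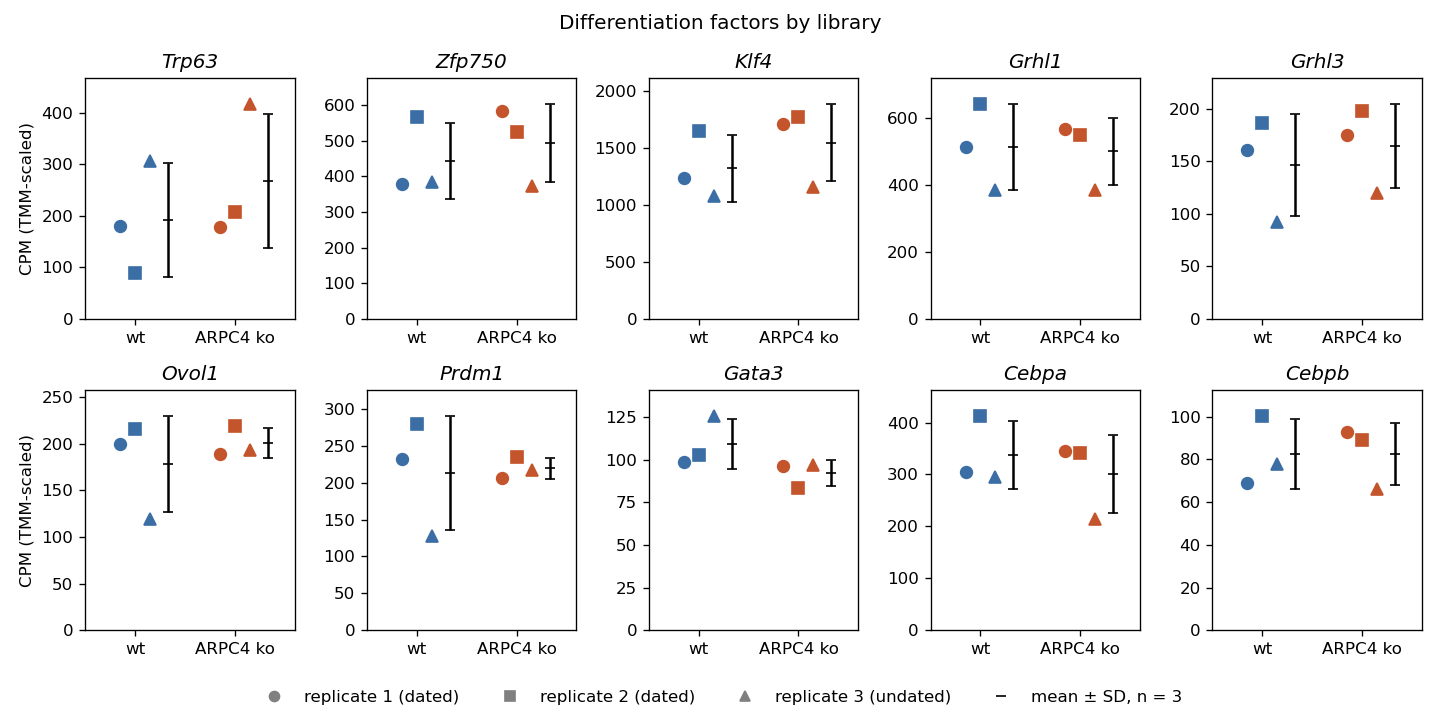
TMM-scaled CPM of each of the 10 factors (vertical axis, from 0) in the 3 wt (blue) and 3 ARPC4 ko (red) libraries, with marker shapes for the replicates and bars for the mean ± SD of 3 libraries. Gata3 is the only factor whose groups do not overlap. The undated replicates (triangles) are the highest of each group for Trp63 and Gata3 and the lowest of each group for Klf4, Grhl1, Grhl3 and Cebpa.

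Trp63 (ENSMUSG00000022510, chr16:25683763-25892102, mm10, plus strand) encodes p63, without which stratified epithelia do not form. Its level was 179.9, 88.3 and 308 CPM in wt replicates 1 to 3, against 179, 208 and 417 CPM in ko replicates 1 to 3. Both undated libraries were the highest of their group, wt replicate 2 was the lowest of all, and the groups overlapped. The means were 192 ± 110.1 CPM (SD, n = 3) in wt and 268 ± 130.0 CPM in ko, with a log2 fold change of 0.48 (SE 0.50, 95% interval -0.71 to 1.67, edgeR adjusted p = 0.776). This value rested on single libraries, at -0.02 without ko replicate 3, 0.13 without wt replicate 2 and 1.0 without wt replicate 3. Trp63 was the most variable of the 10, with a 3.48-fold range within wt alone. Counts were per gene, so the long and short p63 forms, which have different roles, were not separated.

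The order of the libraries for Trp63 was close to that of the basal markers, which are carried by the same cells. Relative to the mean of the 6 libraries, log2 Trp63 lay at -0.19, -1.22 and 0.58 in wt and at -0.20, 0.02 and 1.02 in ko. The mean of the 14 basal genes lay at 0.64, -1.95 and 1.26 in wt and at -0.73, -0.47 and 1.25 in ko. Relative to the basal genes, Trp63 was lowest in wt replicate 1 and highest in wt replicate 2, with the ko libraries between them. Krt5, the basal keratin, had 3424, 846 and 4301 CPM in wt and 1292, 1677 and 5443 CPM in ko, and the ratio of Trp63 to Krt5 (each as CPM per kb of exon) was 0.0138, 0.0273 and 0.0187 in wt and 0.0362, 0.0325 and 0.0201 in ko. The ratio overlapped between the groups, with both dated ko libraries above every wt library. Against Krt14, the partner keratin of Krt5, the ratios were 0.0190, 0.0227 and 0.0273 in wt and 0.0329, 0.0213 and 0.0248 in ko, and they overlapped as well. With the basal mean added to the fit as a covariate, the Trp63 log2 fold change was 0.53 with a narrower interval (SE 0.14, 0.20 to 0.85). It did not pass (edgeR adjusted p = 0.0676) in a fit that called 6.97% of all genes, and the covariate is itself a measure of the same cells. Krt5, Krt14, Krt15, Itga6, Itgb4, Itga3, Col17a1, Dst and Cdh3 belong both to this basal mean and to the p63 targets examined below. The ratios and the covariate fit thus set Trp63 against reported targets of its own product.

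Zfp750 (ENSMUSG00000039238, chr11:121510978-121519333, minus strand), a zinc-finger target of p63 that drives terminal differentiation, was at 379, 566 and 385 CPM in wt, against 584, 525 and 373 CPM in ko. The highest and the lowest library were both ko, and the groups overlapped. The means of 444 ± 106 and 494 ± 109 CPM gave a log2 fold change of 0.16 (SE 0.24, interval -0.41 to 0.73, edgeR adjusted p = 0.863). The dated libraries alone gave 0.20 and the undated pair a log2 ratio of -0.05. Here and below, values of the dated libraries come from an edgeR fit of those libraries alone. Values of the undated pair are plain log2 ratios of CPM.

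Klf4 (ENSMUSG00000003032, chr4:55527143-55532466, minus strand), a zinc-finger factor needed for the outside-in barrier, was at 1240.0, 1651 and 1082 CPM in wt, against 1717, 1771 and 1161 CPM in ko. Its 2 highest libraries were the dated ko ones and the undated library was the lowest in each group, with overlap between the groups. The log2 fold change was 0.23 (SE 0.25, interval -0.36 to 0.81, edgeR adjusted p = 0.791) between means of 1325 ± 294 and 1550.0 ± 337 CPM. It was 0.24 in the dated libraries and 0.10 in the undated pair.

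The grainyhead factors bind a shared DNA motif. Grhl1 (ENSMUSG00000020656, chr12:24572283-24617391, plus strand), which controls desmosomal cadherin genes, was at 513, 641 and 386 CPM in wt, against 566, 549 and 386 CPM in ko. The undated libraries were equal to within 1 CPM and were the lowest of each group. The means were 514 ± 127 and 500.3 ± 99.4 CPM, with a log2 fold change of -0.04 (SE 0.24, interval -0.61 to 0.53, edgeR adjusted p = 0.969). Grhl3 (ENSMUSG00000037188, chr4:135541888-135573630, minus strand), which acts late in barrier formation and activates the transglutaminase gene Tgm1, was at 161, 187 and 92.5 CPM in wt, against 175, 198 and 120.1 CPM in ko. Here too the undated libraries were the lowest and the groups overlapped. The means of 147 ± 48.6 and 165 ± 40.1 CPM differed by 0.17 on the log2 scale (SE 0.30, interval -0.54 to 0.87, edgeR adjusted p = 0.883). In the dated libraries and the undated pair the log2 differences were -0.08 and 0.00 for Grhl1, against 0.07 and 0.38 for Grhl3. As plain log2 ratios of mean CPM, the dated libraries gave -0.05 for Grhl1 and 0.10 for Grhl3. The ratio of Grhl3 to Grhl1 (each per kb of exon) was 0.623, 0.578 and 0.476 in wt and 0.615, 0.716 and 0.618 in ko, and the groups overlapped.

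Ovol1 and Prdm1 are repressors of the earlier cell state: Ovol1 restrains progenitor growth, and Prdm1 encodes Blimp1, which acts at the passage from granular to cornified cells. Ovol1 (ENSMUSG00000024922, chr19:5549136-5560646, minus strand) was at 200, 216 and 119 CPM in wt, against 189, 219 and 193 CPM in ko. Only wt replicate 3 stood away from the other libraries, and the log2 fold change was 0.17 (SE 0.23, interval -0.38 to 0.72, edgeR adjusted p = 0.842) between means of 178 ± 51.8 and 200.2 ± 16.0 CPM. Prdm1 (ENSMUSG00000038151, chr10:44437177-44528501, minus strand) was at 231, 280.0 and 128 CPM in wt, against 207, 234 and 217 CPM in ko. The same wt library was the lowest, and the means of 213 ± 77.6 and 219 ± 13.9 CPM gave a log2 fold change of 0.04 (SE 0.27, interval -0.61 to 0.69, edgeR adjusted p = 0.971).

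For both repressors the dated and the undated libraries gave different directions, as they did for Zfp750 and Cebpb. In the dated libraries, where 1.64% of all genes and 0 of the 10 factors passed, the log2 fold change was -0.05 for Ovol1 and -0.24 for Prdm1, and in the undated pair the log2 ratio of ko to wt was 0.70 and 0.76. The difference between undated and dated libraries, a term chosen after seeing the data, was 0.72 (SE 0.23) for Ovol1 and 0.97 (SE 0.26) for Prdm1, with 1 undated library per group. Both had an edgeR adjusted p of 1, and this term called 0 of 13704 genes (3.72% at an unadjusted p under 0.05), so a dependence on the title date was not shown. About 19.8% of the exon length of Ovol1 lies on the opposite strand of a pseudogene, Gm31166, that is not analysed here.

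Gata3 (ENSMUSG00000015619, chr2:9857078-9890034, minus strand), a zinc-finger factor of epidermal lipid genes and of the hair follicle inner root sheath that is also a defining factor of T cells, was at 98.7, 103 and 126 CPM in wt, against 96.5, 83.3 and 97.2 CPM in ko. The 3 ko libraries all lay below the 3 wt libraries, by a gap of under 2 CPM between wt replicate 1 and ko replicate 3. These 2 libraries had 2243 and 1853 counts of Gata3, so counting error alone could reverse their order. Gata3 was the only factor of the 10 whose groups did not overlap, against 19.4% of all genes tested (8.03% with ko below). The means were 109 ± 14.7 and 92.3 ± 7.84 CPM, with a log2 fold change of -0.24 (SE 0.14, interval -0.57 to 0.09), which did not pass (edgeR adjusted p = 0.538). It was -0.19 in the dated libraries and -0.37 in the undated pair, and it stayed below 0 when any library was left out (-0.35 to -0.14). With the title date as a covariate it was -0.23 (SE 0.10, interval -0.47 to 0.00, edgeR adjusted p = 0.224). T cell markers summed to between 52.1 and 64.6 CPM in wt and between 47.8 and 86.0 CPM in ko, with 0 of 8 genes changed at an unadjusted p under 0.05. Inner root sheath and matrix markers summed to between 4102 and 12020.0 CPM in wt and between 4310.0 and 6913 CPM in ko, with 0 of 11 changed at that threshold, 10 of 11 below 0 and a median log2 fold change of -0.39. Their part in the value of Gata3 was not tested. Sebaceous markers, given above, had lower sums in ko as well, and their part was not tested either.

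Cebpa (ENSMUSG00000034957, chr7:35119293-35121928, plus strand, 1 exon) encodes C/EBP alpha, a factor of cell-cycle exit. It was at 306, 413 and 295 CPM in wt, against 346, 342 and 215 CPM in ko, so that the extremes were wt replicate 2 and ko replicate 3. The means of 338 ± 65.5 and 301 ± 74.5 CPM gave a log2 fold change of -0.17 (SE 0.23, interval -0.73 to 0.39, edgeR adjusted p = 0.847). Cebpb (ENSMUSG00000056501, chr2:167688915-167690418, plus strand, 1 exon) encodes C/EBP beta, a factor of early suprabasal genes. It was at 68.8, 100.5 and 78.0 CPM in wt, against 92.8, 89.1 and 66.1 CPM in ko. Its extremes were wt replicate 2 and ko replicate 3 as well, and its means of 82.4 ± 16.3 and 82.7 ± 14.4 CPM were nearly equal, with a log2 fold change of 0.00 (SE 0.19, interval -0.46 to 0.47, edgeR adjusted p = 0.997). The dated libraries and the undated pair gave -0.09 and -0.46 for Cebpa, and 0.07 and -0.24 for Cebpb. The ratio of Cebpa to Cebpb (per kb) was 2.54, 2.35 and 2.16 in wt and 2.13, 2.19 and 1.86 in ko, overlapping narrowly. Of the exon length of Cebpb, 20.7% overlaps the opposite strand of Tmem189. Tmem189 had between 1899 and 2468 counts per wt library and between 940 and 1617 per ko library. Its groups did not overlap in CPM, at a log2 fold change of -0.73 that did not pass (edgeR adjusted p = 0.232). The strand option used in counting is not given, so reads of the pair may not be fully separated. The part of Tmem189 in the value of Cebpb was not tested.

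Promoter sequences, from 250 bases before to 50 after the annotated start, were available for 7 of the 10 factors (8 entries, RefSeq, GRCm38, the assembly of mm10). Klf4 with Grhl1, and Cebpa with Cebpb, are shown because each pair had like levels over the libraries, with a root mean square difference of 0.14 between log2 levels centred on their means. Each is written 5′ to 3′ on the strand of its gene, with capitals for the TATA box (TATAAA), the CCAAT box and the GC box (GGGCGG) on either strand. The Klf4 promoter is chr4:55532426-55532725 (minus strand), that of Grhl1 chr12:24572037-24572336 (plus), that of Cebpa chr7:35119043-35119342 (plus) and that of Cebpb chr2:167688665-167688964 (plus).
Klf4: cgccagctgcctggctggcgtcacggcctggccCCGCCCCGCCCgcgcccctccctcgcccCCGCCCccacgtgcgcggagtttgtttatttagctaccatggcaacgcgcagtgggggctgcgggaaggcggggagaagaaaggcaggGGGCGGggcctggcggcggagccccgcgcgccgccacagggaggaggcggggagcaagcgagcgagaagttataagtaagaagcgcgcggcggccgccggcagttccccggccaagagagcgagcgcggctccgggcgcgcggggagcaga
Grhl1: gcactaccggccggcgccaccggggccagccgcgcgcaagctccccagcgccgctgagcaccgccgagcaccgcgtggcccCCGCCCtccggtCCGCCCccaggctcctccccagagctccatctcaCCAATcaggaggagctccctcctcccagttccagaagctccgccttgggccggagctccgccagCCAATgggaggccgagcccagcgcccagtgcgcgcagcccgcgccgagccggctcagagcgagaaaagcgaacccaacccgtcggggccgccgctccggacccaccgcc
Cebpa: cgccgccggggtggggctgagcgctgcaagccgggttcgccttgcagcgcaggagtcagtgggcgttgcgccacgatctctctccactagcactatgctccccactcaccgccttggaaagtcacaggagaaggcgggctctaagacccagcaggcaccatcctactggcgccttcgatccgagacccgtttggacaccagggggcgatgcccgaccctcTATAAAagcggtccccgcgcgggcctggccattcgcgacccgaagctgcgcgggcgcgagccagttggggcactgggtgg
Cebpb: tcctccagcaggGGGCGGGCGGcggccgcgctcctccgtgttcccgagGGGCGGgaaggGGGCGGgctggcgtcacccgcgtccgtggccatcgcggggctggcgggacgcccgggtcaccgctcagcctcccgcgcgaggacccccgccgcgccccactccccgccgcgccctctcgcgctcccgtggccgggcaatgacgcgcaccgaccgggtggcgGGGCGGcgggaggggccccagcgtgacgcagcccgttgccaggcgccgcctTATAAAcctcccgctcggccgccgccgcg
The Klf4 promoter holds 4 matches to GGGCGG and Grhl1 holds 2 with 2 to CCAAT. Cebpa holds 1 TATAAA, 30 bases before the annotated start, and Cebpb holds 1, 22 bases after it, with 5 matches to GGGCGG. Neighbouring GGGCGG matches share bases in Klf4 and Cebpb, and no match overlaps one of another motif. Among 32851 promoters of the same length, TATAAA occurs in 13.6%, CCAAT in 37.4% and GGGCGG in 35.7%. The grainyhead motif AACNGGTT (2.09% of all promoters), the C/EBP motif TTGCNNAA (10.8%) and the GATA motif AGATAA (11.2%) are in none of the 8 entries. The KLF motif GGGNGTGG (17.6%) is in 4 of the 8, those of Cebpb, Gata3, Grhl3 and Prdm1, and is not marked above. All motifs were searched on both strands.

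**Figure D2:**
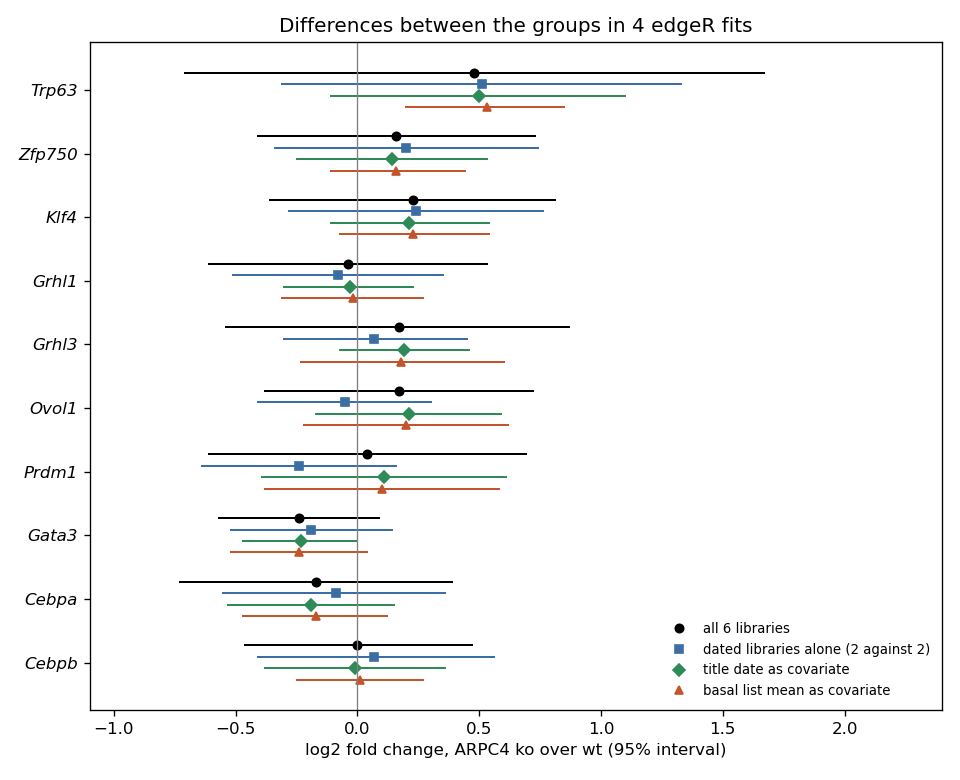
Log2 fold change of ARPC4 ko over wt (horizontal axis) with its 95% interval for each of the 10 factors in 4 edgeR fits: all 6 libraries, the dated libraries alone, and fits with the title date or the basal mean as a covariate. With all 6 libraries and no covariate every interval contains 0, and the widest is that of Trp63 (-0.71 to 1.67). With the basal covariate the interval of Trp63 (0.20 to 0.85) lies above 0, and with the title date covariate that of Gata3 ends at 0.00.

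Per kb of exon, Klf4 was by far the most abundant of the 10 and Trp63 and Gata3 the least. The length used joins all annotated exons of a gene (8391 bp for Trp63), which a single transcript need not carry, so the lower ranks depend on it. By CPM without length, Cebpb (82.4) and Gata3 (109) had the lowest wt means. Trp63, at 192 CPM, then lay above Grhl3 (147) and Ovol1 (178) as well. In wt the order of mean levels was Klf4 (434 ± 96.4 CPM per kb), Zfp750 (137 ± 32.9), Cebpa (128 ± 24.8), Grhl1 (92.7 ± 23), Cebpb (54.8 ± 10.8), Grhl3 (52.6 ± 17.4), Ovol1 (51.1 ± 14.8), Prdm1 (38.2 ± 13.9), Gata3 (27.4 ± 3.69) and Trp63 (22.9 ± 13.1). In ko it was Klf4 (508 ± 110.7), Zfp750 (153 ± 33.7), Cebpa (114 ± 28.3), Grhl1 (90.3 ± 17.9), Grhl3 (59.0 ± 14.4), Ovol1 (57.4 ± 4.58), Cebpb (55.0 ± 9.60), Prdm1 (39.3 ± 2.49), Trp63 (31.9 ± 15.5) and Gata3 (23.2 ± 1.97). Klf4 stood apart, since its lowest library (355 CPM per kb) was above the highest library of every other factor (181). All other neighbours in these orders overlapped in their library ranges, except Grhl1 and Cebpb in wt and Cebpb and Prdm1 in ko. The change of rank of Trp63 and Gata3 between the groups lay within the spread of Trp63.

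Each of the families examined held lower-expressed paralogs. Per kb of exon, Grhl2 was at 5.32 in wt and 6.00 in ko, below Grhl1 and Grhl3. Klf3 was at 26.3 and 30.1 and Klf5 at 16.1 and 19.2, both far below Klf4. Ovol2, the paralog of Ovol1, was at 0.522 and 0.192, Cebpg at 9.92 and 9.86, Cebpd at 0.877 and 1.15, and Gata6 at 1.49 and 1.16. None of these paralogs passed the test.

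**Figure D3:**
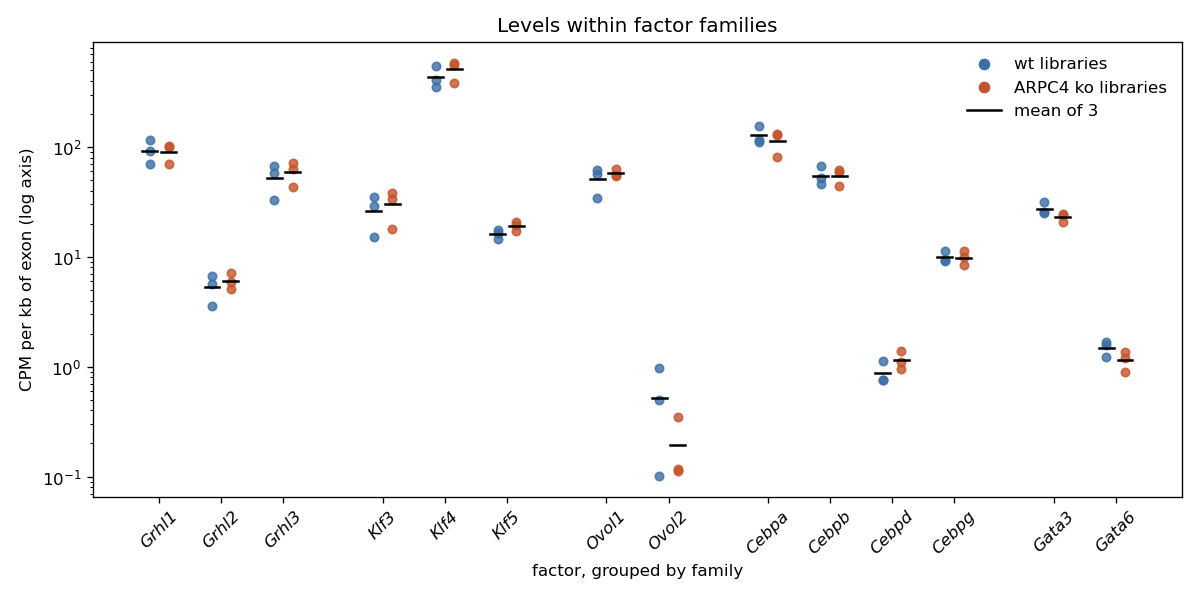
CPM per kb of exon (vertical log axis) of the factors and their paralogs, grouped by family, in each wt (blue) and ARPC4 ko (red) library, with lines at the mean of 3. Klf4, Grhl1, Ovol1, Cebpa and Gata3 are the highest of their families shown, and the libraries of the groups overlap for every gene but Gata3.

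The 10 factors did not follow the libraries alike. Trp63 was the least like the others, with a root mean square difference in centred log2 level of 0.70 to 1.02 from each of them over the 6 libraries. This measure grows with the wide range of Trp63 itself as well as with differences in direction. The closest of the 45 pairs were Zfp750 and Klf4 (0.09), Ovol1 and Prdm1 (0.10) and Zfp750 and Cebpb (0.11). These values describe 6 libraries that share their depth and layer content with every gene, and they carry no test. Klf4 was nearest to the mean of the 10 spinous genes (0.09), and Grhl1 to that of the 17 granular and cornified genes (0.07). Of the spinous genes, Krt1, Krt10, Dsg1a and Lypd3 are also among the reported targets examined below. So are Lor, Ivl, Tgm1, Tgm3, Tgm5, Cdsn, Klk7 and Alox12b of the granular and cornified genes. Krt1 and Krt10, the suprabasal keratins, had log2 fold changes of 0.39 and 0.28 that did not pass (edgeR adjusted p = 0.749 and 0.835). Krt10 kept a steady proportion to Klf4, whose ratio to it varied only 1.29-fold among the libraries. Against the basal side the balance was wide: Klf4 over Trp63 (per kb) was 19.0, 51.5 and 9.68 in wt and 26.5, 23.4 and 7.66 in ko. Krt10 over Krt5 followed a like course, with 13.2, 64.8 and 7.67 in wt and 45.7, 40.6 and 6.38 in ko. In both ratios wt replicate 2 was the highest and the undated libraries the lowest, and neither separated the genotypes.

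**Figure D4:**
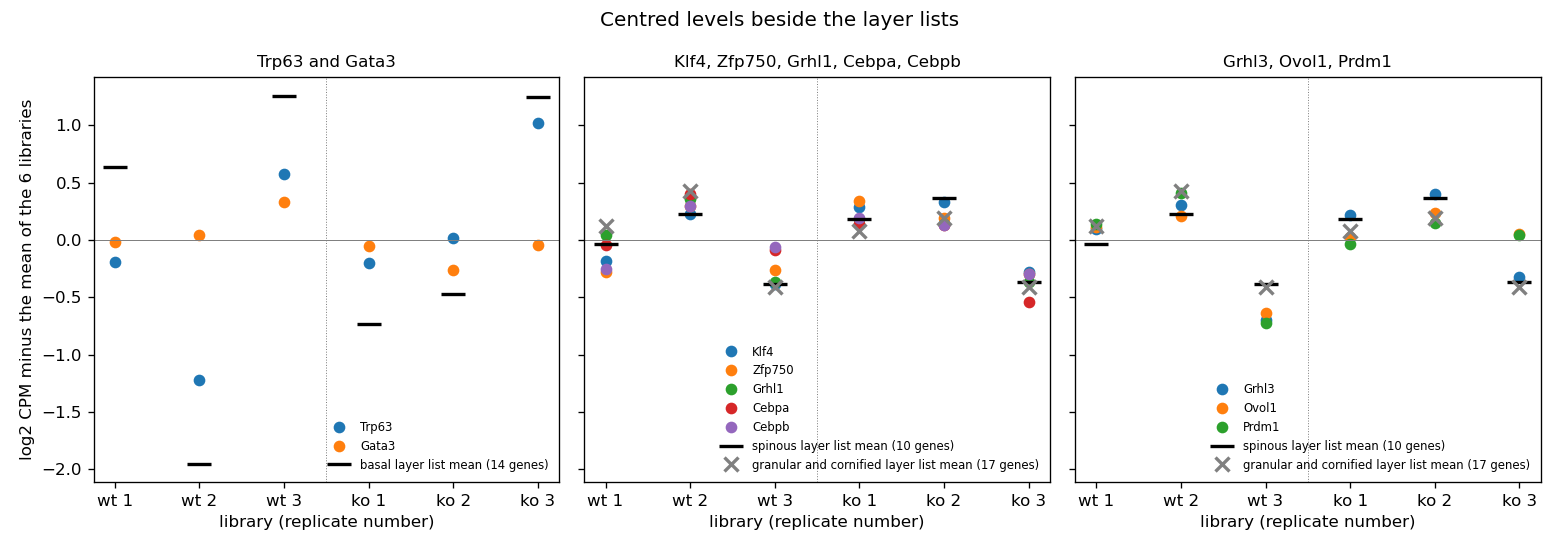
Log2 CPM minus the mean of the 6 libraries (vertical axis) for the factors in each library, with bars and crosses for the means of the basal, spinous, and granular and cornified marker lists. Trp63 is low in wt replicate 2 (-1.22) and high in ko replicate 3 (1.02), whereas Klf4 and Grhl1 stay within 0.38 of 0 and follow the suprabasal lists.

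Among 9451 genes with a mean of at least 5 CPM, the genes most like each factor over the 6 libraries were listed by the same measure. Those of Trp63 were Ppat (0.0762), an enzyme of purine synthesis, then Arhgap11a and Cpne8. Grhl1 was nearest to Tmem63b (0.0321), Ncoa2 and Ypel3, and Grhl3 to Cpeb4 (0.0279), a translation regulator, Pld2 and Kif13b. Klf4 was nearest to Rgs20 (0.0549), Rps6kb2 and Tubb2a, and Zfp750 to Adam19 (0.0741), Hist1h1c and Tmem102. The repressors were nearest to Rbsn (0.0830), Depdc5 and Dock9 for Ovol1 and to Serinc2 (0.0697), Pgp and Nlrp10 for Prdm1. Gata3 was nearest to Ulk2 (0.0311), Efna1 and Rpl28. The bZIP factors were nearest to Commd5 (0.0485) and Polm for Cebpa and to Gnptg (0.0747), Gpr137b and mt-Nd5 for Cebpb.

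A wider list of 50 keratinocyte transcription factors gave no call either. By edgeR adjusted p, 0 of 50 passed, and at an unadjusted p under 0.05 6 were higher and 1 was lower, close to the 13.2% of all genes (7.98% higher, 5.25% lower). The 3 ko libraries all lay above the 3 wt libraries for 6 of the 50 and all below for 2, against 11.3 and 8.03% of all genes. Ehf, an Ets factor of epithelial differentiation, was at 38.6, 38.9 and 30.6 CPM in wt, against 80.2, 140.3 and 177 CPM in ko, with no overlap and a log2 fold change of 1.88 (SE 0.29, edgeR adjusted p = 0.0688). Elf3, a related epithelial Ets factor, was at 14.8, 12.4 and 28.6 CPM in wt, against 41.2, 29.3 and 70 CPM in ko, with every ko library above every wt one (log2 fold change 1.33, adjusted p = 0.248). Tfap2c, an AP-2 partner of p63, had a log2 fold change of 0.55, Hes1, a Notch target, one of -0.83, and Zeb1, a mesenchymal repressor at 1.95 and 3.18 CPM, one of 0.70 beside the higher fibroblast markers; their edgeR adjusted p were 0.283, 0.331 and 0.337. Whether Ehf and Elf3 pass depended on the tool: DESeq2 called both, the fit with the title date as a covariate, in which 5.17% of all genes passed, called both and Tfap2c, and limma-voom called neither.

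**Figure D5:**
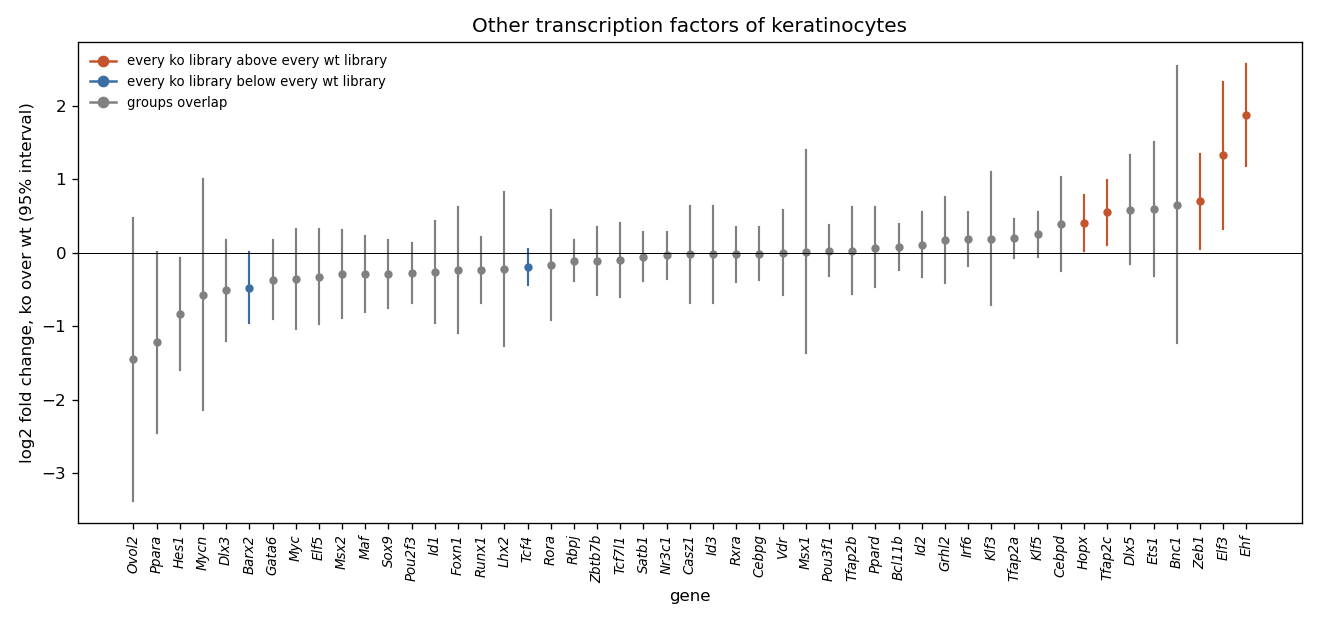
Log2 fold change of ARPC4 ko over wt (vertical axis, 95% intervals) for 49 of the 50 other keratinocyte factors tested, ordered by size, with color where the 3 ko libraries lie all above or all below the 3 wt libraries. Ehf (1.88) and Elf3 (1.33) are the highest and Ovol2 (-1.45), at 1.06, 0.213 and 2.04 CPM in the wt libraries, is the lowest.

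Co-factors of these transcription factors, such as chromatin remodellers and co-repressors, gave 0 of 22 passing by edgeR and 2 higher at an unadjusted p under 0.05, beside 7.98% of all genes. These 2 were Ing5, a reader of histone marks, at 16.4 ± 0.425 CPM in wt against 23.1 ± 0.946 CPM in ko (log2 fold change 0.49, adjusted p = 0.133), and the co-repressor Ctbp2 (0.59, adjusted p = 0.152). Actl6a (0.28), Kdm1a (0.11) and Crebbp (0.16), the next in order of p, lay within the spread between libraries.

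Genes reported as direct targets of the factors were also examined, and none passed. Of the union of 60 targets tested, 0 passed by edgeR. An unadjusted p under 0.05 was found for 5 higher and 3 lower ones, beside 7.98% and 5.25% of all genes, and the median log2 fold change was 0.04. Among the 27 targets of p63, 1 was higher and 0 were lower at an unadjusted p under 0.05. The smallest p belonged to Bmp7, at 48.9 ± 3.18 CPM in wt against 63.9 ± 6.01 CPM in ko (log2 fold change 0.39, edgeR adjusted p = 0.231). It was followed by Chuk, Fras1, Dlx3, Dsc3 and Cdh3 at 0.22, -0.96, -0.51, 0.25 and 0.80. Among the 17 targets of the grainyhead factors, 3 were higher and 1 was lower at that threshold. The 3 ko libraries all lay above the 3 wt libraries for 5 of the 17, against 11.3% of all genes. Of the 17, 13 lay above 0, beside 7275 of all 13704 genes, and no test was made of these counts. Named for their p were Slpi (1.55, adjusted p = 0.168), Lypd3 (0.49), Fscn1 (0.92), Arhgef19 (-0.36), Tgm3 (0.45) and Dsg1b (0.75). Slpi, a secreted protease inhibitor, was at 3.17, 6.22 and 4.08 CPM in wt, against 7.16, 14.4 and 17.7 CPM in ko, with no overlap.

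Of 17 targets of the other factors, 1 was higher and 2 were lower at an unadjusted p under 0.05, beside 7.98% and 5.25% of all genes. The genes named here were Fa2h, Aqp3, Plin2, Agpat5, Lor and Elovl4. Fa2h, which hydroxylates ceramide fatty acids, was at 149, 172 and 165 CPM in wt, against 76.8, 36.6 and 75.3 CPM in ko. Its groups did not overlap, at a log2 fold change of -1.36 (SE 0.28, edgeR adjusted p = 0.108). Plin2, a lipid droplet protein, had 159 ± 49.8 CPM in wt against 79.3 ± 18.9 CPM in ko, a log2 fold change of -1.0 with adjusted p = 0.194. Agpat5 (-0.57) and Elovl4 (-0.27), an acyltransferase of phospholipid synthesis and an elongase of barrier lipids, overlapped between the groups, as did Lor (-0.63), the major cornified envelope protein. The water channel Aqp3 was at 305 ± 29.7 CPM in wt against 432 ± 15.9 CPM in ko (0.50, adjusted p = 0.173). DESeq2 called Aqp3 and Slpi higher and Fa2h and Plin2 lower. The lower sebaceous markers stand beside Fa2h and Plin2, among them Scd1 (log2 fold change -1.12) and Pparg (-1.24), and their part in these values was not tested.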

How the data were processed

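Strand-specific messenger RNA libraries of trypsin-treated epidermis were sequenced as single-end reads of 51 bp, per the labels' protocols. The deposited values are raw counts of reads per Ensembl gene, made by the authors with TopHat2 2.0.12, Bowtie 1.1 and HTSeq on mm10, per the submitters' processing notes. The HTSeq strand option and annotation were not given in the sources used here. Reads with more than 1 alignment (32.4 to 40.9% of those listed), ambiguous reads and reads outside genes stayed out of library sizes and tests.

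Groups came from the genotype label and replicate numbers from marks in the titles (I, II and Tryp as 1, 2 and 3). No libraries of a group agreed within sampling noise, so each counted as 1 sample. Symbols matched 40254 identifiers, and positions and exon lengths came from GENCODE M21 on GRCm38. The 13704 genes kept by filterByExpr were scaled by TMM and tested with edgeR 4.0.16 in R 4.3.3 (glmQLFit, robust, glmQLFTest, group only), with Benjamini-Hochberg adjustment and a threshold of 0.05. The SE was taken as the absolute log2 fold change divided by the root of the F statistic. Centred log2 CPM used a prior count of 2. DESeq2 1.42.0 and limma-voom (limma 3.58.1), 3 other scalings, 2 filters, 2 other fits, a replicate block, title date and basal covariates, the dated libraries alone and leaving out each library were alternatives. An interaction with the title date was added after seeing the data.

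Named were all 10 factors, up to 6 genes of the smallest p from the list of other factors, the co-factor list and each target list, the 3 genes most like each factor (predicted and sex-linked genes left out), Krt5, Krt14, Krt1, Krt10, Lor and Arpc4. Ly6g, Mmp8, Ovol2, the paralogs, Scd1, Pparg and Tmem189 were named outside this rule, after their values were seen. A few genes that the rule names are not reported here. The members and lists were chosen with earlier results of these data known. Tested on simulated counts for 13704 genes, edgeR called 2, 32, 70 and 90% of genes changed 1.5-, 2-, 4- and 8-fold, with 10 false calls of 107, and DESeq2 had 47 false calls of 165.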

Additional observations from a re-analysis of the deposited data

How the results depend on the processing

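None of the 10 factors was called under any of the 19 alternatives, and the lowest adjusted p was 0.0676 (Trp63, basal covariate). Direction was kept in 171 of 190 values. In the dated libraries alone it turned for Ovol1 (-0.05) and Prdm1 (-0.24). For Cebpb, near 0 throughout, it turned to -0.02 with DESeq2 size factors and upper-quartile scaling, -0.03 with total counts and DESeq2, and -0.01 with the title date covariate. Leaving out each library gave ranges of -0.02 to 1.0 for Trp63, 0.01 to 0.37 for Zfp750, 0.08 to 0.41 for Klf4, -0.23 to 0.15 for Grhl1, -0.10 to 0.37 for Grhl3, -0.07 to 0.33 for Ovol1, -0.24 to 0.28 for Prdm1, -0.35 to -0.14 for Gata3, -0.28 to 0.00 for Cebpa and -0.15 to 0.17 for Cebpb. Of the 50 other factors, 3 were called by DESeq2 (4.21% of all genes) and 4 with the title date covariate (5.17%). In the dated libraries 1 was called (1.64%), and with the basal covariate 6 were (6.97%). Leaving out a library gave 0 to 1 (Ehf, without ko replicate 1). Of the 60 targets, 4 were called by DESeq2, 3 with the title date covariate and 6 with the basal covariate, beside the shares of all genes just given. Leaving out any single library gave 0. Cdh3, called with the basal covariate, is itself part of that covariate. With the replicate block, 0 of the 10 factors, 3 of the other factors and 1 target were called, beside 2.58% of all genes. Same-numbered libraries did not all deviate together (r of -0.186, 0.469 and 0.670), and not every library correlated best with its own number, so the pairing was not used; replicate 3 is undated in both groups. The cause of these differences was not tested. All genes called rose from 30 to 354 with the block, 709 with the title date covariate and 955 with the basal covariate, and were 227 in the dated libraries, 648 with DESeq2, 0 with limma-voom, 57 with no filter, 18 with a filter of 1 CPM or the older fit, 20 with total counts, 64 without ko replicate 3 and 0 without any wt library or ko replicate 2. With 3 libraries a group, 1.5-fold changes were seldom detectable.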
